A study of Homo sapiens with 12 samples.

Results

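RNA from cells that received full-length NPM1c (dTAG FL-NPM1c) was compared with RNA from cells that received a construct named C-body null (dTAG C-body null). These are 6 of the 12 samples of the series, 3 in each group, and were assigned to groups by their labels. The comparison itself and the gene lists used below were chosen with earlier results of these data known. All came from the OCI-AML3 line of human acute myeloid leukaemia, in degron cells in which the cytoplasmic mutant of nucleophosmin (NPM1c) can be degraded through dTAG-13. Cells of both groups were spin-infected with virus for their construct, received 500 nM dTAG-13 at 48 hours after transduction, and were sorted for mCherry 24 hours after that. The other 6 samples were dTAG mCherry, with mCherry alone and the same treatment, and NTC DMSO, with the solvent. The labels do not say what the C-body null construct changes, what NTC stands for, or whether replicates came from separate cultures. A p-value here therefore refers to sample-to-sample spread that may be only technical, in 1 cell line.

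Nucleophosmin is a nucleolar chaperone. The leukaemia mutation creates an export signal, so that the mutant shuttles through the exportin CRM1, and cells that carry it express HOXA and HOXB genes together with their cofactor MEIS1, a programme that depends on the menin-MLL chromatin complex. C-bodies are nuclear condensates of such leukaemia proteins, and the comparison asks how transcripts differ between add-back of NPM1c and of a form named for lacking them. Loss of the HOX and MEIS1 programme in this disease is known to go with monocytic differentiation.

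Sequencing depth differed between the groups. FL-NPM1c libraries held 42.4 M to 59.9 M gene counts (M, 1e6) and C-body null libraries 36.1 M to 42.2 M, so every FL-NPM1c library was deeper. Nuclear ribosomal RNA genes took 0.0254% to 0.0361% of counts with FL-NPM1c and 0.00852% to 0.0134% with C-body null. Mitochondrial transcripts took 7.10% to 7.63% and 7.06% to 7.63%. The part of depth or ribosomal RNA in the results was not tested. No library was a copy of another of its group, since chi-square per degree of freedom over genes was 4.15 to 10.6 among FL-NPM1c pairs and 3.72 to 10.9 among C-body null pairs. Levels are given as CPM, counts scaled to effective library size. CPM is not corrected for gene length, so levels are compared between samples and not between genes.

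NPM1 transcripts were present with both constructs. The level was 1922 ± 21.7 CPM (SD, n = 3) with C-body null and 1651 ± 38.9 with FL-NPM1c, and the 3 FL-NPM1c libraries lay below the 3 C-body null libraries. The difference of -0.22 ± 0.09 (SE) on the log2 scale did not pass the test (edgeR adjusted p = 0.14; 0.0048 when only these 6 libraries were fitted). Gene counts hold endogenous and construct transcripts together, and they do not measure protein or its degradation. Among markers of the myeloid line, CD33 stood at 64.5 CPM in the FL-NPM1c group and 80.6 in the other. KIT had 0 counts in all 12 libraries, which allows up to 3 counts in each. CD34 had 5 to 11 counts with C-body null (mean 0.225 CPM) and 3 to 8 with FL-NPM1c (0.0961 CPM), and did not pass the filter for testing.

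FL-NPM1c and C-body null differed in 2329 of 24064 genes tested, 1160 of them higher and 1169 lower with FL-NPM1c (edgeR quasi-likelihood test, Benjamini-Hochberg adjusted p under 0.05). These are 9.68% of the genes tested, 4.82% higher and 4.86% lower, and the median log2 fold change of all genes was 0.01. At least 2-fold differences were more frequent among the higher genes (311) than among the lower genes (195). Protein-coding genes made up 839 of the higher and 872 of the lower genes. The count depended on single libraries. It dropped to 1378 without C-body null replicate 1 and to 1387 without its replicate 2. Leaving out FL-NPM1c replicate 1 gave 1511 calls, and leaving out its replicate 2 gave 1365. Fitted on the 6 libraries alone it was 4410.

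**Figure D1:**
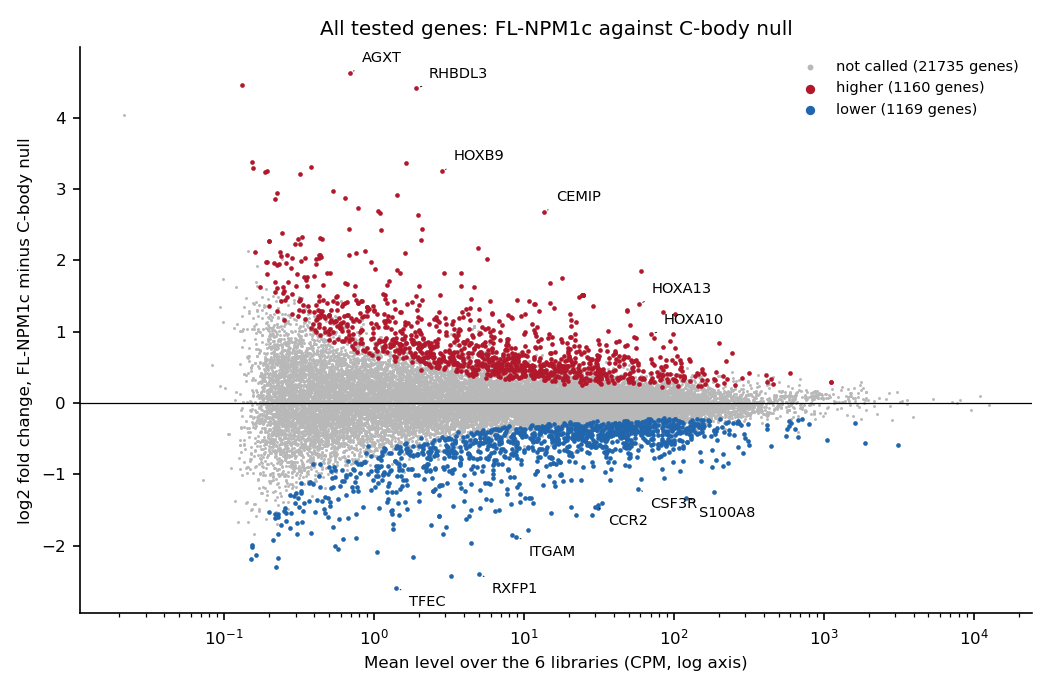
Each point is 1 of 24064 tested genes, with its mean level over the 6 libraries (CPM, log axis) against the log2 fold change of FL-NPM1c minus C-body null; red genes were called higher and blue genes lower. The 1160 higher genes reach further from 0 than the 1169 lower genes, and names mark 12 genes, among them RHBDL3 at 4.41 and TFEC at -2.59.

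HOX genes were higher with FL-NPM1c. HOX proteins are homeodomain transcription factors, and those of the A and B clusters maintain self-renewal of blood progenitors. Of 23 tested HOX cluster and MEIS/PBX cofactor genes, 13 were called higher and 0 lower, or 56.5% against 4.82% of all genes called higher, with a median log2 fold change of 0.88 against 0.01. The 13 were HOXA3, HOXA5, HOXA9, HOXA10, HOXA11 and HOXA13, HOXB2, HOXB3, HOXB6, HOXB7, HOXB8 and HOXB9, and MEIS1. The list has 28 entries, of which 5 did not pass the filter on low counts. Long noncoding RNAs from the clusters followed the same pattern, with 7 of 9 tested called higher (77.8%), 0 lower and a median of 1.03.

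HOXB9 (ENSG00000170689, chr17:48621159-48626356, minus strand, GRCh38) had 0.577, 0.455 and 0.572 CPM in C-body null replicates 1, 2 and 3 and 5.62, 4.80 and 4.94 in FL-NPM1c replicates 1, 2 and 3. The lowest FL-NPM1c library thus lay far above the highest C-body null library. The log2 fold change was 3.25 ± 0.17 (SE), or 9.53-fold (adjusted p = 9.2e-09). Its neighbour HOXB8 (chr17:48611377-48614939, minus strand) had 0.302, 0.329 and 0.357 CPM with C-body null and 2.29, 2.94 and 2.33 with FL-NPM1c, a log2 fold change of 2.91 ± 0.20 (adjusted p = 9.3e-08). These 2 adjoining genes had the largest fold among HOX genes with at least 1 CPM in the higher group.

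HOXA13 (chr7:27193503-27200106, minus strand) lies at the 5' end of the A cluster. It had 33.9, 30.7 and 32.2 CPM with C-body null and 79.7, 85.0 and 89.3 with FL-NPM1c, a log2 fold change of 1.39 ± 0.09 (adjusted p = 6.8e-08). HOXA10, at 47.9 ± 1.06 and 93.4 ± 2.53 CPM (SD, n = 3), was 0.96 ± 0.07 (SE) higher. The 3 libraries of each group did not overlap for either gene.

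HOXA9, the A cluster gene most studied in leukaemia, had 29.8, 27.9 and 29.3 CPM with C-body null and 41.3, 47.7 and 46.0 with FL-NPM1c. Its log2 fold change of 0.63 ± 0.09 (adjusted p = 0.00019) was the smallest among the 13 called members. MEIS1, the TALE homeodomain partner of HOXA9, rose from 8.23 ± 0.292 to 15.7 ± 0.481 CPM (SD, n = 3), by 0.93 ± 0.09 (SE). HOXA11 was 0.88 ± 0.08 higher. The remaining B cluster members lay between 0.97 ± 0.18 (HOXB7) and 1.16 ± 0.09 (HOXB3).

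At the 3' side of the A cluster, transcripts were scarce. HOXA5 had 5, 1 and 1 counts with C-body null and 26, 27 and 33 with FL-NPM1c, and HOXA3 had 3, 0 and 1 against 15, 17 and 20. Both were called higher, but their fold rests on the 7 and 4 counts of the C-body null group. HOXA-AS3, an antisense transcript across that region, had 2, 1 and 0 counts against 15, 14 and 12.

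Not every tested gene of the clusters was called. HOXB4 (0.31 ± 0.10, adjusted p = 0.056), HOXB13 (0.30 ± 0.14, adjusted p = 0.18) and HOXB5 (-0.51 ± 0.20, adjusted p = 0.12) did not pass, nor did the noncoding PRAC2 (0.49). HOXB4 had 6.95, 6.76 and 6.98 CPM with C-body null and 8.71, 8.51 and 8.38 with FL-NPM1c, groups that do not overlap, and it passed with a filter of at least 50 counts in 3 libraries (adjusted p = 0.039) and in the 6 libraries alone (0.024). HOXB5 passed as lower in the 6 libraries alone (adjusted p = 0.034). At the 3' end of the A cluster the noncoding HOTAIRM1 was at 0.04 ± 0.15 (adjusted p = 0.92). Among cofactors PBX2, PBX3, MEIS2 and MEIS3 lay between -0.06 ± 0.08 (PBX2) and 0.22 ± 0.09 (PBX3), and PBX4 (0.59 ± 0.23) did not pass either.

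**Figure D2:**
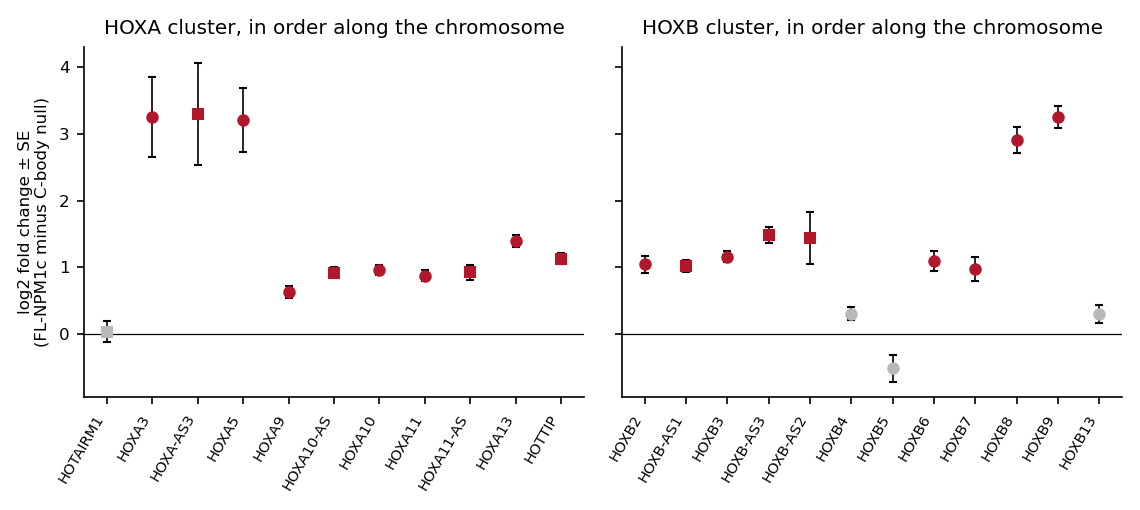
Log2 fold change (FL-NPM1c minus C-body null, points) with its standard error (bars) for 11 tested genes of the HOXA cluster and 12 of the HOXB cluster in chromosome order; circles are coding genes, squares noncoding RNAs, red were called higher and grey were not called. In the A cluster HOXA9 to HOTTIP lie between 0.63 and 1.39, and in the B cluster HOXB8 and HOXB9 stand above the other genes at 2.91 and 3.25.

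Noncoding RNAs of the clusters included HOTTIP, transcribed beyond HOXA13, which brings MLL-associated WDR5 to the A cluster. It had 13.4, 14.5 and 14.1 CPM with C-body null and 29.1, 30.3 and 32.6 with FL-NPM1c, with no overlap and a log2 fold change of 1.13 ± 0.08 (adjusted p = 1.5e-07). HOXB-AS3 was 1.48 ± 0.12, HOXB-AS1 1.03 ± 0.09, HOXA10-AS 0.92 ± 0.09 and HOXA11-AS 0.92 ± 0.11 higher. HOXB-AS2 (1.44 ± 0.38) was also called, but not in 3 of the 12 alternative fits that gave it a value (13 fits were run in all). The sources used here do not give the strand setting of the counting, so antisense and overlapping genes such as HOXB3, HOXB-AS3 and HOXA10 may share reads.

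**Figure D3:**
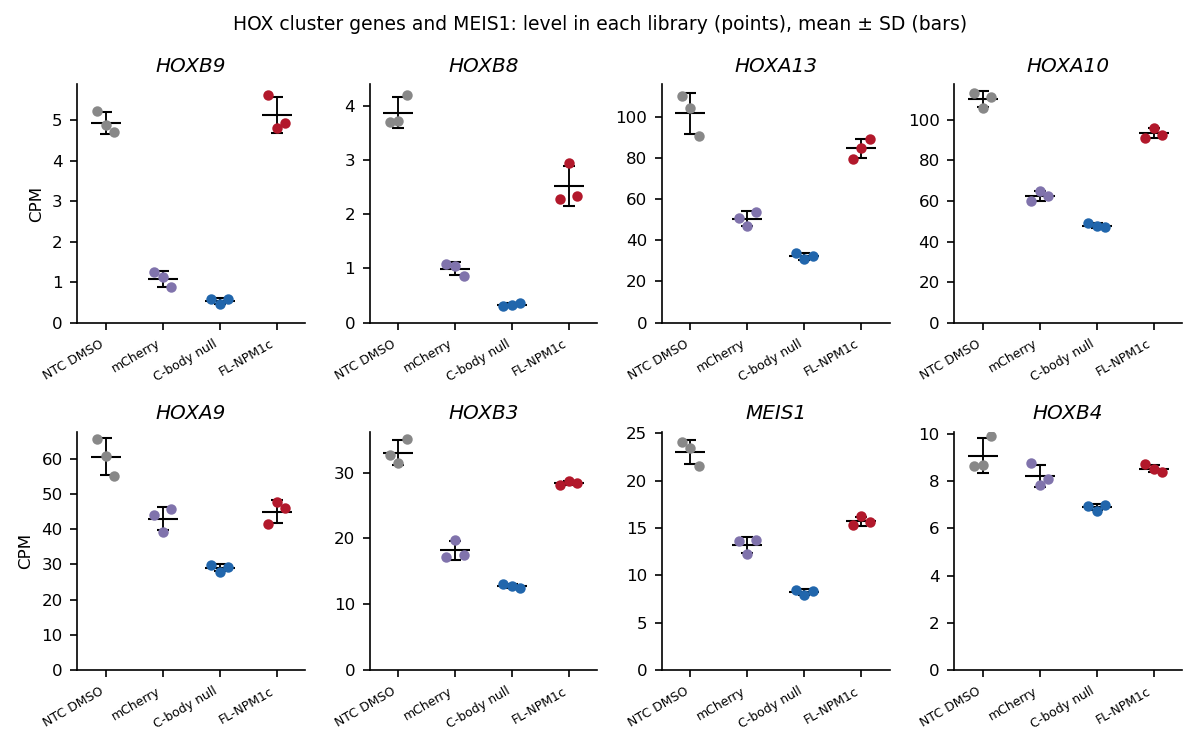
Level in each library (points, CPM), with mean and SD (bars, n = 3), of 8 genes in the 4 groups. In HOXB9, HOXB8, HOXA13, HOXA10, HOXA9, HOXB3 and MEIS1 the 3 FL-NPM1c libraries lie above the 3 C-body null libraries, and HOXB4 shows the same order over a narrower range, 6.90 against 8.54 CPM on average.

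In the dTAG mCherry and NTC DMSO groups the HOX levels give a scale for this difference. HOXB9 stood at 1.08 CPM with mCherry and 4.94 in NTC DMSO, beside 0.535 with C-body null and 5.12 with FL-NPM1c. HOXA13 stood at 50.5 and 102 CPM, HOXA9 at 42.9 and 60.6, and MEIS1 at 13.2 and 23.0. Comparisons of both constructs against mCherry share the mCherry libraries and are not independent. Against mCherry, the FL-NPM1c group had 11 of the 23 HOX list genes higher and 0 lower, where 15.5% of all genes were called. The C-body null group had 0 higher and 8 lower, where 0.594% of all genes were called. Against NTC DMSO, the FL-NPM1c group had 1 of the 23 higher and 8 lower, with a median log2 fold change of -0.13. The C-body null group had 2 higher and 15 lower against NTC DMSO, with a median of -1.20. Medians of all genes against NTC DMSO were 0.02 and -0.00072, and the share of all genes called is not reported here.

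Promoter sequences are shown for 2 HOX genes and 2 monocyte genes, picked as examples with unequal numbers of CpG dinucleotides. MLL binds such dinucleotides through its CXXC domain when they are unmethylated. The part of CpG or of MLL in the results was not tested. The HOX examples do not represent their list, whose matched called members had a median of 17.5 CpG, against 20 for all tested genes. Each sequence is the 250 bases before the gene's start in RefSeq (GRCh38.p14), 5' to 3' on the gene's strand, with CpG in capitals. They are HOXA13 (chr7:27200092-27200341, minus strand, 40 CpG), HOXA9 (chr7:27165538-27165787, minus strand, 20 CpG), ITGAM (chr16:31259725-31259974, plus strand, 2 CpG) and CCR2 (chr3:46353861-46354110, plus strand, 2 CpG).
HOXA13: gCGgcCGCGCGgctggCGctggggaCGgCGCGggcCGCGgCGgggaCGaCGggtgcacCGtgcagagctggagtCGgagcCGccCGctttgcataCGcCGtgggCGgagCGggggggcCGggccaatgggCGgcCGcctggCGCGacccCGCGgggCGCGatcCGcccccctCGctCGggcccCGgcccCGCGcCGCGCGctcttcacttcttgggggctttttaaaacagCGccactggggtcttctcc
HOXA9: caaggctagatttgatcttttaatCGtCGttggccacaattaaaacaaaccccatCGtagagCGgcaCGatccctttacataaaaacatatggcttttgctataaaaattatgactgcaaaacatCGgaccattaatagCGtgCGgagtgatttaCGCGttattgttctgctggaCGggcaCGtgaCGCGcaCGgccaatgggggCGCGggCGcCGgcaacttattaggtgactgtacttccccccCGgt
ITGAM: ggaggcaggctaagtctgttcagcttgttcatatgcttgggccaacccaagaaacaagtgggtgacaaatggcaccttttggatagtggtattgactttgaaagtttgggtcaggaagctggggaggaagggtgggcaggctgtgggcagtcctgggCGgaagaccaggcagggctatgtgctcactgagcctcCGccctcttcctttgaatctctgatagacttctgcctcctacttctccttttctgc
CCR2: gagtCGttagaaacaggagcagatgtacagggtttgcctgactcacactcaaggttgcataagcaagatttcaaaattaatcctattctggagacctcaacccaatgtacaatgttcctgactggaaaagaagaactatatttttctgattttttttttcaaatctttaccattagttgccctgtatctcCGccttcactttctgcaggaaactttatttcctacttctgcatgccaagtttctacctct

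Of 12013 tested genes with a RefSeq promoter, the median number of CpG in these 250 bases was 20. It was 20 for the 701 matched genes called higher and 18 for the 742 called lower. The 6 matched HOX list members that were called (of 13) had a median of 17.5, with a range of 11 to 40 whose highest value is that of HOXA13, and the 19 matched monocyte list members that were called (of 22) had a median of 2, with a range of 0 to 26. The letters AGGAAGT, which the myeloid factor PU.1 and other ETS proteins can bind, were searched on both strands. They occur in 7.14% of all 12013 promoters, in 10.5% of those of genes called lower and in 6.28% of those called higher. Among the 19 monocyte promoters 6 hold them, including TYROBP, the DAP12 signalling adaptor (chr19:35908296-35908545, minus strand), where they lie on the opposite strand as the reverse complement, in capitals, beginning 12 bases before the start.
TYROBP: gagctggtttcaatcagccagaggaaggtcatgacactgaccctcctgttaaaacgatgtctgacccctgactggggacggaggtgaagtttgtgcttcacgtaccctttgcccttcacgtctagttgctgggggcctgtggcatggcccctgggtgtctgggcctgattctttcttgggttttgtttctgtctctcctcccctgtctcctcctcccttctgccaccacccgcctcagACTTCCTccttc
These are counts of letters, with no measurement of binding or methylation. Uncalled members of the HOX and monocyte lists are not given, so the counts cannot tell being called from being on the list.

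Genes of monocytes and macrophages were lower with FL-NPM1c. Of 39 tested members of that list, 22 were called lower and 0 higher, or 56.4% against 4.86% of all genes called lower, with a median log2 fold change of -0.50. The called members were receptors, signalling adaptors and other membrane proteins (ITGAM, ITGAX, CCR2, CX3CR1, FCGR1A, FCER1G, TLR2, TLR4, TLR8, CLEC7A, CLEC12A, CSF1R, MS4A6A and TYROBP), secreted or granule proteins (LYZ, S100A8, S100A9, S100A12 and FCN1), CYBB, MNDA and the transcription factor IRF8. In bulk RNA, fewer cells of a type and less RNA per cell cannot be told apart.

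ITGAM (ENSG00000169896, chr16:31259967-31332892, plus strand) encodes the CD11b chain of the complement receptor Mac-1. It had 14.2, 13.9 and 13.8 CPM with C-body null and 3.20, 4.64 and 3.59 with FL-NPM1c. The groups lay far apart, and the log2 fold change was -1.88 ± 0.14 (SE), or 3.68-fold lower (adjusted p = 1.6e-07). Mean levels with mCherry and in NTC DMSO were 15.4 and 3.94 CPM. ITGAM does not stand for the list in its level beside NTC DMSO. Of the 39 monocyte list genes, FL-NPM1c against NTC DMSO gave 30 higher and 4 lower. Their median log2 fold change was 1.28, against 0.02 for all genes. C-body null against NTC DMSO gave 35 higher and 3 lower (median 2.00, against -0.00072 for all genes). The share of all genes called against NTC DMSO is not reported here, so these counts have no such share beside them. S100A8, for 1, had a mean of 69.1 CPM in the FL-NPM1c group and 5.62 in NTC DMSO.

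CCR2, the receptor that draws monocytes out of marrow, had 44.1, 44.3 and 43.5 CPM with C-body null and 16.4, 15.4 and 16.4 with FL-NPM1c, a log2 fold change of -1.45 ± 0.09 (adjusted p = 2.7e-08). The high-affinity IgG receptor FCGR1A fell from 45.9 ± 1.94 to 17.0 ± 0.274 CPM (SD, n = 3), by 1.43 ± 0.08 on the log2 scale. Both genes were tight within groups. The alarmin S100A8 was more variable with FL-NPM1c, at 92.5, 63.8 and 51.1 CPM in replicates 1, 2 and 3 against 166, 170 and 185 with C-body null, and fell by 1.33 ± 0.17. Its partner S100A9 fell by 1.25 ± 0.15.

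LYZ, the bacterial cell wall enzyme lysozyme, changed less, from 3774 ± 112 to 2506 ± 32.7 CPM (-0.59 ± 0.07, adjusted p = 3.6e-05). CD14 was at 10.4 ± 2.23 and 7.41 ± 1.74 CPM with overlapping libraries and did not pass (-0.50 ± 0.18, adjusted p = 0.097). CD68, FCGR2A, C1QA and C1QC, which also mark macrophages, had small positive values that did not pass, from 0.14 (C1QC) to 0.25 (C1QA). The highest value of the list was that of the receptor CD300E (0.94 ± 0.43, adjusted p = 0.19), at 0.145 and 0.277 CPM, with all FL-NPM1c libraries above the others. In all 7 of the 39 members had positive values. With each library left out in turn, the number of monocyte list members called lower ranged from 15 (without FL-NPM1c replicate 2 or 3) to 22 (without FL-NPM1c replicate 1), and of the 22 calls 6 were at least 2-fold.

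**Figure D4:**
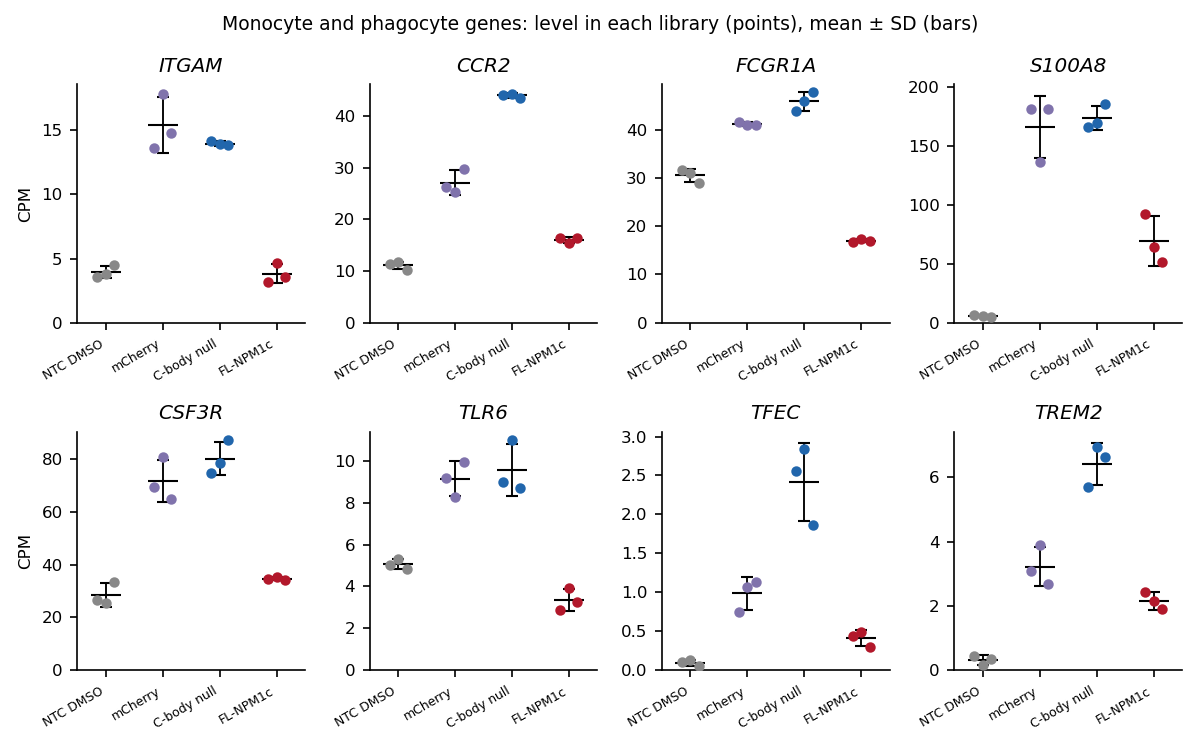
Level in each library (points, CPM), with mean and SD (bars, n = 3), of 8 monocyte and phagocyte genes in the 4 groups. In all 8 genes the 3 FL-NPM1c libraries lie below the 3 C-body null libraries, and S100A8 spreads from 51.1 to 92.5 CPM with FL-NPM1c.

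The same direction held for other myeloid receptors, whose lists overlap that of the monocyte genes. Of 24 Toll-like, C-type lectin and Fc receptors 11 were lower and 1 higher, with a median of -0.55. Among all genes 4.86% were called lower and 4.82% higher. TLR6, which pairs with TLR2 for bacterial lipopeptides, fell from 9.57 ± 1.25 to 3.34 ± 0.530 CPM (-1.52 ± 0.13), and CLEC10A by 1.08 ± 0.24. Of 15 LILR, Siglec and TREM receptors 8 were lower and 0 higher (53.3% called against 9.68% of all genes, median -0.51). TREM2, a lipid receptor of macrophages, had 5.69, 6.93 and 6.65 CPM against 2.44, 2.15 and 1.89 (-1.58 ± 0.18), with no overlap, and the inflammatory receptor TREM1 fell by 1.49 ± 0.17.

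Cytokine and growth factor receptors were lower in 16 of 33 tested genes and higher in 1, with a median of -0.33. The share called was 51.5%, against 9.68% of all genes. CSF2RA, the GM-CSF receptor chain, fell by 1.58 ± 0.21 and CSF3R, the G-CSF receptor, by 1.21 ± 0.11. CSF3R had 74.9, 78.6 and 87.3 CPM with C-body null and 34.6, 35.3 and 34.2 with FL-NPM1c. Counts of CSF2RA are given under 2 gene IDs with identical values, so they cannot be assigned to 1 copy. The member called higher was IL7R, the lymphoid interleukin 7 receptor (1.43 ± 0.19).

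Integrins and adhesion genes had 7 of 21 lower and 1 higher (38.1% called against 9.68% of all genes, median -0.09). The largest decreases among them were those of the SLAM receptor CD84 (-2.04 ± 0.34), ITGAM and ITGAX (-1.05 ± 0.16). ITGB3 was higher (1.41 ± 0.35), a call that ended without C-body null replicate 3 (0.95, adjusted p = 0.064) and without FL-NPM1c replicate 2 (1.28, adjusted p = 0.067). Complement genes had 7 of 22 lower and 2 higher (40.9% called), with the receptors C3AR1 (-1.20 ± 0.17) and CR1 (-1.06 ± 0.13) lower and the protease C1R higher (1.30 ± 0.25). CYBB, the catalytic subunit of the phagocyte NADPH oxidase, which makes superoxide, fell by 0.60 ± 0.09 from 107 to 70.5 CPM.

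Myeloid transcription factors split, with 5 of 37 higher, 5 lower and a median of 0.04 (27.0% called against 9.68% of all genes). TFEC, a member of the MITF family found in macrophages, had the largest decrease among all genes named by the rule. It had 2.56, 2.83 and 1.86 CPM with C-body null and 0.436, 0.490 and 0.295 with FL-NPM1c, which is 6.02-fold lower (-2.59 ± 0.25, adjusted p = 3.4e-06). IRF8 fell by 0.37 ± 0.06 from 721 to 558 CPM, and RUNX1, EGR1 and GFI1 were the other members called lower. KLF2 (0.75 ± 0.18), RUNX2 (0.62 ± 0.08), GATA2 (0.57 ± 0.14), ZEB1 and BHLHE40 were higher. The GATA2 call ended without C-body null replicate 1 or 2 (adjusted p = 0.076 and 0.071), and that of KLF2 in 3 of the 13 alternatives.

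Granule genes, which mark an earlier myeloid stage than monocytes, did not go 1 way. Of 12 tested, SERPINB10 (-1.55 ± 0.19), MS4A3 (-0.81 ± 0.10) and MPO (-0.69 ± 0.18) were lower and ELANE, neutrophil elastase, was higher (0.66 ± 0.17). The share called was 33.3%, against 9.68% of all genes. MS4A3 went from 147 ± 4.07 to 83.9 ± 4.20 CPM. The MPO and ELANE calls ended in 5 and 4 of the 13 alternatives. Of 16 stem and progenitor markers only 5 were tested, and 4 of these (80.0%) were higher, CDK6 (0.39 ± 0.10), GATA2, EGFL7 (0.70 ± 0.19) and the natriuretic peptide receptor NPR3 (2.07 ± 0.40). The remaining tested member was at -0.26 and was not called. NPR3 rests on 19 counts with C-body null and 102 with FL-NPM1c, and HLF, MECOM, HOPX and KIT were at 0 in all 6 libraries. The CDK6 call ended without C-body null replicate 3 (adjusted p = 0.11) and FL-NPM1c replicate 3 (0.072), and the EGFL7 call ended in 4 of the 13 alternatives.

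Outside the HOX clusters, 9 of 24 menin-MLL target genes were higher and 3 lower, with a median of 0.23. Among all genes 9.68% were called in either direction. The cell cycle inhibitor CDKN2C had 64.0, 66.0 and 69.6 CPM with C-body null and 121, 126 and 117 with FL-NPM1c, a log2 fold change of 0.86 ± 0.09 (adjusted p = 6.6e-06) without overlap. SOX4 (0.74 ± 0.11), SATB1 (0.69 ± 0.07) and RUNX2 followed, and MEF2C, JMJD1C, IGF2BP2, UBASH3B and CDK6 were also higher. RUNX1, FUT4 and BCL2 were lower, the last by 0.30 ± 0.09 with adjusted p = 0.042 and in 7 of the 13 alternatives only. The 3 lower calls were lost together without C-body null replicate 1 or 2 or FL-NPM1c replicate 1. The number of higher calls was 6 without C-body null replicate 3 or FL-NPM1c replicate 3, with medians of 0.16 and 0.18. The machinery itself differed little. Of 36 genes of the MLL complex, the super elongation complex and the CRM1 export route, 0 were higher and 1 was lower (2.78% called), ELL2, an elongation factor (18.2 ± 0.760 to 9.83 ± 0.749 CPM, -0.89 ± 0.12).

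The largest increases lay mostly outside these lists. AGXT, a peroxisomal aminotransferase of liver, had 0.0275, 0.0759 and 0.0477 CPM with C-body null, 6 counts in all, and 1.18, 1.38 and 1.43 with FL-NPM1c (4.63 ± 0.43). RHBDL3, a rhomboid-like membrane protein, had 0.165, 0.101 and 0.238 CPM and then 3.72, 3.64 and 3.64, a 21.3-fold increase (4.41 ± 0.24, adjusted p = 9.2e-09). The cadherin CDH6 had 0.275, 0.278 and 0.310 CPM against 3.07, 2.68 and 3.20 (3.36 ± 0.19). In each of these genes the groups did not overlap, and the C-body null level was low, with a spread of over 2-fold between libraries in AGXT and RHBDL3, so that the size of the fold is less certain than its direction.

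CEMIP, a hyaluronan-binding protein, had 3.08, 3.85 and 4.03 CPM with C-body null and a mean of 23.5 ± 1.54 (SD, n = 3) with FL-NPM1c, 6.41-fold higher (2.68 ± 0.14). The rest of the 15 largest increases were the adhesion protein MDGA1, the vasopressin receptor AVPR1B, the interferon-induced chemokine CXCL11, the kinase MAST4, the neurotrophin receptor NGFR, the guidance ligand SLIT2, the channel subunit KCNMB4, COL1A2 and the macrophage growth factor CSF1, besides HOXB9 and HOXB8, with log2 fold changes from 2.28 ± 0.16 (KCNMB4) to 2.88 ± 0.45 (MDGA1). CSF1 was higher (2.43 ± 0.25, from 0.349 to 1.89 CPM) while the transcript of its receptor CSF1R was lower (-0.48 ± 0.11, adjusted p = 0.012).

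Among the largest decreases, the relaxin receptor RXFP1 had 9.10, 8.75 and 7.63 CPM with C-body null and 1.28, 1.70 and 1.79 with FL-NPM1c (-2.41 ± 0.17, adjusted p = 1.4e-07). The calcium channel subunit CACNA2D3 had 2.91, 3.09 and 2.91 CPM against 0.741, 0.606 and 0.640 (-2.16 ± 0.21). The mu opioid receptor OPRM1 had 1.90, 2.05 and 1.14 CPM against 0.370, 0.280 and 0.509 (-2.08 ± 0.29), with a wider spread. All 3 genes encode membrane proteins and their groups did not overlap. The unnamed locus AL356417.3 fell from 5.72, 6.25 and 4.50 to 0.806, 0.840 and 1.35 CPM. The lymphocyte phosphatase PTPN22 (-1.97 ± 0.14), the fatty acid receptor GPR84 (-1.78 ± 0.12) and the cytokine TNFSF14 (-1.71 ± 0.17) were also among the 15 largest decreases, as were ITGAM, CSF2RA, TFEC and SEMG1.

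Set beside mCherry, the genes above fell into different positions. CEMIP differed from mCherry with FL-NPM1c (2.58 ± 0.14, adjusted p = 3.9e-08) and was at -0.10 ± 0.15 with C-body null (adjusted p = 0.81). PTPN22 was likewise at -1.95 ± 0.14 and 0.02 ± 0.13. TFEC was lower than mCherry with FL-NPM1c (-1.30 ± 0.27, adjusted p = 0.0053) and higher than mCherry with C-body null (1.29 ± 0.23, adjusted p = 0.0098), and KCNMB4 was higher (1.33 ± 0.15) and lower (-0.95 ± 0.18, adjusted p = 0.021). Among the 39 monocyte list genes, FL-NPM1c against mCherry gave 2 higher and 20 lower, where 15.5% of all genes were called, and C-body null against mCherry gave 3 higher and 0 lower, where 0.594% were called. Both sets of calls use the same mCherry libraries.

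Interferon response genes were higher in 11 of 37 tested members and lower in 1, with a median of 0.38 (32.4% called against 9.68% of all genes). ISG15, a ubiquitin-like modifier, had 1.76, 1.44 and 1.91 CPM with C-body null and 3.31, 4.66 and 3.33 with FL-NPM1c (1.14 ± 0.23, adjusted p = 0.0044). LGALS3BP (1.27 ± 0.18), the antiviral synthetase OAS3 (1.18 ± 0.14) and IFIT5 (0.88 ± 0.14) rose as well, as did the RNA sensors RIGI and IFIH1, IFIT3, PARP14, SAMD9, IFI35 and BST2. TRIM22 was lower (-0.55). Levels were low, below 6 CPM in both groups for the 4 genes with the largest increases. With 1 library left out, 7 to 9 members were higher, with 7 in the absence of C-body null replicate 1 or 2 or FL-NPM1c replicate 3. Against mCherry the list had 7 higher and 3 lower with FL-NPM1c, where 15.5% of all genes were called.

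NF-kB and inflammatory genes went both ways, with 5 of 24 higher and 6 lower (45.8% called against 9.68% of all genes). The survival gene BCL2A1 (-1.23 ± 0.17), the cytokine IL1B (-0.89 ± 0.11, from 65.2 to 35.3 CPM), CCL2 and ICAM1 were lower, while the pathway members NFKBIE and RELB were higher. Among 35 immediate early and MAPK feedback genes 5 were higher and 3 lower (22.9% called). NR4A3, an orphan nuclear receptor, had 0.0550, 0.0253 and 0.119 CPM with C-body null and 0.523, 0.816 and 0.755 with FL-NPM1c (3.31 ± 0.39), and its relative NR4A1 was 1.31 ± 0.17 and JUNB 0.75 ± 0.15 higher. The 3 increases had groups that did not overlap.

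The shares of called genes in the lists that follow lay below the 9.68% of all genes, apart from G2/M and mitosis genes (11.4%), and G1/S and DNA replication genes stood at 7.69%. Among 39 G1/S genes 3 were higher (CDT1 at 0.69 ± 0.14, E2F2 and E2F1) and 0 lower, and among 35 G2/M genes 4 were higher (CENPE at 0.59 ± 0.11, CDC20, PLK1 and BIRC5) and 0 lower, with medians of 0.10 and 0.13. Of these 7, only CDT1 and CENPE passed in all 13 alternatives. Of 29 MYC-responsive genes 0 passed, and of 28 p53 targets 1 did, the stress cytokine GDF15 (0.77 ± 0.16). Cytosolic ribosomal protein genes had 1 of 79 called, RPL12 (0.30 ± 0.07), with a median of 0.12 and 78 positive values. Ribosome biogenesis factors had 2 of 61 lower (WDR12 and UTP20) with a median of -0.07, and mitochondrially encoded genes 0 of 13.

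**Figure D5:**
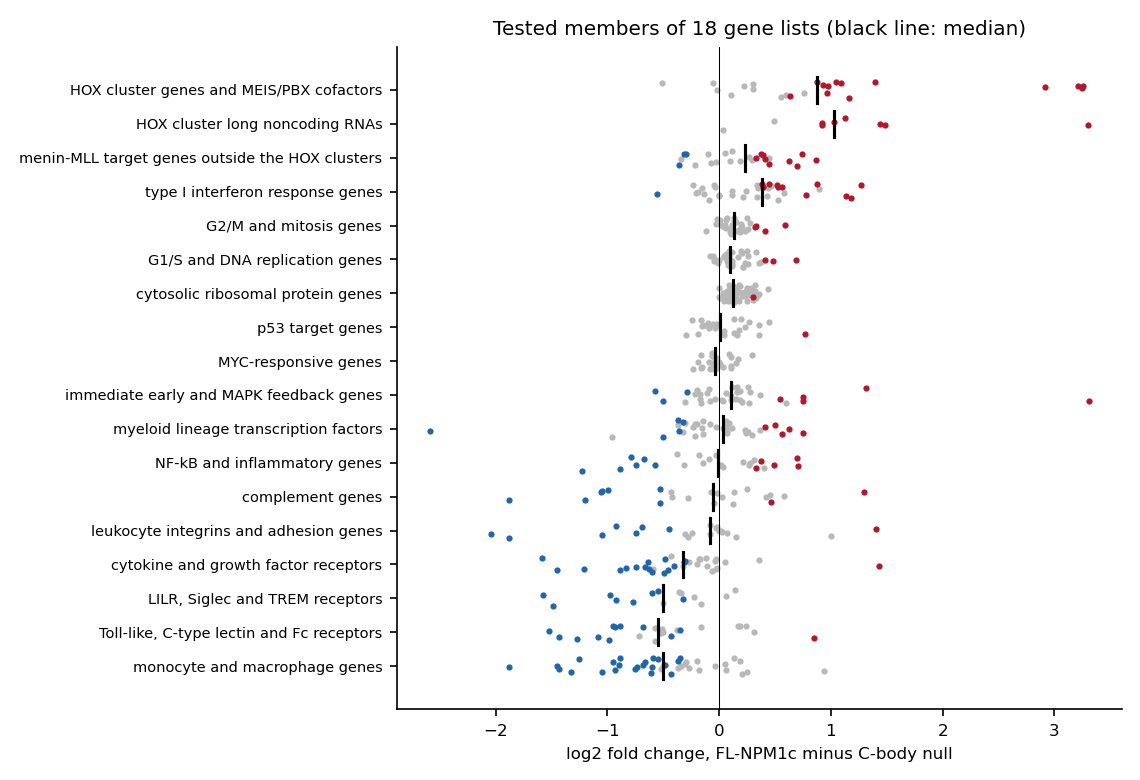
Each point is a tested gene of 1 of 18 lists, placed by its log2 fold change (FL-NPM1c minus C-body null); red was called higher, blue lower and grey not called, and the black line is the list's median. The HOX lists lie to the right with medians of 0.88 and 1.03, and the lists of monocyte genes, Toll-like and related receptors, and LILR, Siglec and TREM receptors lie to the left, with medians of -0.50, -0.55 and -0.51.

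Markers of other blood and tissue cells were summed in each library. T and NK cell markers (19 genes) summed to 62.6 to 68.1 CPM with FL-NPM1c and 71.9 to 74.6 with C-body null, with CD3D, CD3E, CD3G and CD2 at 0 in all 6 libraries. B and plasma cell markers (15 genes) summed to 7.67 to 9.15 and 2.83 to 3.5 CPM, with IGHM and IGKC at 0, and all 3 tested members were higher, SDC1 (1.82 ± 0.14), EBF1 (0.89 ± 0.23) and PAX5, which had 0, 0 and 3 counts with C-body null and 16, 7 and 21 with FL-NPM1c. Without C-body null replicate 3 the C-body null group has no PAX5 count. Epithelial and fibroblast markers (15 genes) summed to 1870 to 1992 and 1511 to 1521 CPM, with EPCAM, CDH1, KRT19 and COL3A1 at 0. Of their 4 tested members VIM, FN1 and COL1A2 were higher. The remaining member was at -1.01 with its FL-NPM1c libraries all below the others, and was not called. The EBF1, VIM and FN1 calls ended in 4, 4 and 2 of the 13 alternatives. Dendritic cell markers (17 genes) summed to 829.7 to 856.6 and 1002 to 1012 CPM, with CD1D (-0.42 ± 0.08) and IRF8 lower. The sum does not give the direction of the list, since 6 of its 8 tested members had positive values (median 0.09). Erythroid and megakaryocyte markers summed to 13.5 to 14.8 and 13.5 to 14.2 CPM, and PPBP was higher (1.83 ± 0.30). Basophil, eosinophil and mast cell markers summed to 5.18 to 5.42 and 4.00 to 4.79 CPM. Of their 5 tested members only GATA2 was called, as higher, and the other 4 had negative values (list median -0.75). The part of other cells in the results above was not tested.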

How the data were processed

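Total RNA was extracted with Trizol, and per the labels' protocols 500 ng of it went into a TruSeq Stranded mRNA preparation. Whole-number gene counts were deposited by the authors, 1 column per sample. STAR, featureCounts, DESeq2 and hg38 stand in the submitters' processing notes; no version, annotation release or strand setting is given in the sources used here. The number in a sample's description was read as that of its column, an inference. The labels of NTC DMSO name dTAG as treatment where the titles read DMSO.

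Of 78936 lines 6 were broken and left out. A table of gene names supplied 42177 symbols and GENCODE 29, the source of coordinates, 15568; 21185 IDs had none. Counts were fitted with edgeR 4.0.16 (R 4.3.3): filterByExpr by group, which left 24064 genes, TMM factors (0.975 to 1.02), and 1 robust quasi-likelihood fit of all 12 libraries, with FL-NPM1c minus C-body null as a contrast. Adjusted p under 0.05 was called. The SE was taken as |log2 fold change| over the root of F. Totals of 30.5 M to 59.9 M counts set the precision of low genes. The script was tested on simulated data.

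The comparison and the 40 gene lists were chosen with earlier results of these data known. CALCOCO2, a coding gene, was taken out of the noncoding HOX list after its values were seen. Named genes were, with a symbol, a call, no overlap between the 2 groups of 3 and at least 1 CPM in the higher group, the 15 largest changes each way, NPM1 and its pseudogenes, all tested HOX and MEIS/PBX genes, and up to 4 called genes per list; other called list members are named where a list is enumerated, and some are not reported here. Alternatives were RLE factors, totals alone, DESeq2 1.42.0, at least 50 counts in 3 libraries, no filter, adjusted p under 0.01, at least 2-fold, the 6 libraries alone, a replicate block, and each of the 6 libraries left out. Promoters are RefSeq's.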

Additional observations from a re-analysis of the deposited data

How the results depend on the processing

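The 2329 calls became 1169 at adjusted p under 0.01 (569 higher, 600 lower), 506 at 2-fold (311 and 195) and 4410 in the 6 libraries alone (2312 and 2098) (the cause was not tested). With each library left out they ranged from 1365 to 2148 (612 to 925 higher, 666 to 1257 lower). DESeq2 called 1221 higher and 1440 lower, and no low-count filter 1708 and 1368. In no setting was a gene called in the opposite direction. The HOX count of 13 was 8 at 2-fold, and 13 or 14 with a library left out; the monocyte count of 22 was 14 at adjusted p under 0.01 and 6 at 2-fold.

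Replicate numbers did not pair the samples (correlations of same-numbered deviations -0.08, -0.16 and -0.26). With a replicate block 1786 genes were called (897 higher, 889 lower), 13 HOX and 21 monocyte genes among them.

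Of 139 called genes named by the rule, 106 kept their call under every alternative that gave a fitted value (11 to 13 per gene), 33 lost it under at least 1 and 0 changed sign. Among uncalled genes HOTAIRM1 (-0.065 to 0.13 on the log2 scale), MEIS2 (-0.10 to 0.064) and MEIS3 (-0.030 to 0.20) changed sign when a library was left out.

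The pseudogene NPM1P26, which may share reads with NPM1, was called lower (7.20 against 10.7 CPM, -0.57 ± 0.17, edgeR adjusted p = 0.038) but not in 5 alternatives. Depth limits genes with a few counts in the C-body null libraries, such as HOXA3, HOXA5, PAX5 and AGXT.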

Other observations

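Beside 9.68% of all genes called (edgeR, adjusted p under 0.05), the shares were 17.9% for glycolysis and hypoxia genes, 14.3% for cholesterol genes, 12.5% for amino acid response genes and 9.52% for endoplasmic reticulum stress genes. Of 32 amino acid response genes 3 were higher and 1 was lower in the FL-NPM1c group, with the glycine transporter SLC6A9 (1.41 ± 0.20 on the log2 scale, SE) and the cystine transporter SLC7A11 (-0.77 ± 0.12, from 47.5 to 27.7 CPM) at the ends. Of 28 glycolysis and hypoxia genes 2 were higher and 3 lower. EPAS1, the hypoxia-inducible factor HIF-2 alpha, rose from 41.7 ± 1.26 to 71.0 ± 5.65 CPM (SD, n = 3; log2 0.77 ± 0.08, adjusted p = 1.4e-05), while the glucose transporter SLC2A3 fell by 1.00 ± 0.09, from 23.7 to 11.9 CPM. The 2 groups did not overlap in either gene. Of 28 cholesterol genes 3 were higher, among them the sterol reductase TM7SF2 (0.65 ± 0.14), and 1 lower.

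Lysosomal genes were lower in 4 of 29 and higher in 0 (13.8% called against 9.68% of all genes), with the acid lipase LIPA (-0.58 ± 0.11) and the ceramidase ASAH1 (-0.43 ± 0.09) among them. Endoplasmic reticulum stress genes had 2 of 21 lower, HERPUD1 (-0.43 ± 0.08) and ERN1, which did not pass without FL-NPM1c replicate 2 (adjusted p = 0.051). Antigen presentation genes had PSMB9, an immunoproteasome subunit, higher (0.72 ± 0.11), and the MHC regulator NLRC5 (-0.55 ± 0.13) and the invariant chain CD74 (-0.50 ± 0.10) lower. In the BCL2 family BCL2A1 and BCL2 were lower and BCL2L11, which encodes the cell death protein BIM, was higher (0.29 ± 0.07), a call that ended in 5 of 13 alternatives. Clustered histone genes had 3 of 16 higher (18.8% called), among them H2AC20 (1.03 ± 0.23, lost without C-body null replicate 2 or FL-NPM1c replicate 2), and heat shock genes 1 of 19 (5.26%), HSPB1.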
